A study of Mus musculus with 9 samples.

Results

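Rab GTPase genes were examined for non-methylated DNA at their promoters in C127 cells. The members were all protein-coding genes of GENCODE M21 whose symbol was Rab followed by a number and, where present, a letter, and there were 59 of them among 21938 protein-coding genes. Each was judged by whether a non-methylated island (NMI) covered the 5′ end of any of its transcripts, here called a transcription start site (TSS). C127 is a mouse mammary epithelial cell line, and the labels name no treatment or genetic change for the library used. The NMIs came from 1 Bio-CAP library, in which fragments of genomic DNA were captured on the CXXC domain of KDM2B, a domain that binds CpG dinucleotides lacking methylation. The study asked how CFP1, another CXXC-domain protein, and its SET1 complex find their target genes on such DNA. There was no replicate, and the list gave a position for each of its 13491 NMIs but no height or score, so that sequencing depth was unknown and shares carry exact (Clopper-Pearson) 95% binomial intervals for counting error only. Of all protein-coding genes, 47.5% had an NMI at a TSS. None was found at a TSS of 11 epithelial marker genes, among them Cdh1, Cldn3, Cldn4 and Cldn7 (0%, upper bound 28.5%). Of 8 neuronal markers 1 carried an NMI (Stx1a, 1026 bp), and of 6 secretory and haematopoietic markers 0 did (upper bound 45.9%). An NMI is not a measure of expression, so these counts do not test the identity of the line.

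Rab proteins are small GTPases that mark the membranes of the cell and direct vesicle traffic between them. In the GTP-bound form they recruit effectors such as tethers and motor proteins, exchange factors (GEFs) load them with GTP, activating proteins (GAPs) end the active state, and a lipid tail added by prenylation holds them on the membrane. Some members serve steps that every cell carries out, such as transport from the ER to the Golgi or fusion of early endosomes, whereas others are known from polarised epithelium, neurons, gland cells, pigment cells or immune cells. CpG islands, which are usually free of methylation, mark the promoters of most widely expressed genes.

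At least 1 TSS was covered by an NMI in 42 of 59 Rab genes (71.2%, 95% interval 57.9 to 82.2%), against 47.5% of all protein-coding genes. Of 244 TSSs of the 59 genes, 144 lay in an NMI, but TSSs of a gene often shared one, and these 144 fell in 43 NMIs. A share over the TSSs of all protein-coding genes is not given here for comparison. The count of Rab genes with an NMI rose to 43 with NMIs within 250 bp of a TSS (48.2% of all protein-coding genes). Within 1000 bp it rose to 44 (49%). It was 39 at the outermost TSS (42.5%), 41 with NMIs of at least 500 bp (46%), and 42 both for TSSs of protein-coding transcripts (46.7%) and for TSSs at least 100 bp inside an NMI (46.5%). With only NMIs that held no TSS of another gene, it was 31 (31.3%). The 19 widely used Rab genes all had an NMI (100%, 95% interval 82.4 to 100%), whereas 6 of 14 epithelial, neuronal and secretory members did (42.9%, 95% interval 17.7 to 71.1%), a share near that of all genes. The difference between these classes was not tested, since genes of 1 library are not replicates. In the plot of shares by class, the widely used class has the highest share, and the intervals of the small classes are broad. Their upper bounds were 90.6% for the epithelial, 94.7% for the secretory, 77.7% for the neuronal and 80.6% for the melanosome or immune class. These bounds cover counting error only and do not test a difference between classes. Classes were also assigned with earlier results of these data known, so 19 of 19 is no independent support for a difference.

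**Figure D1:**
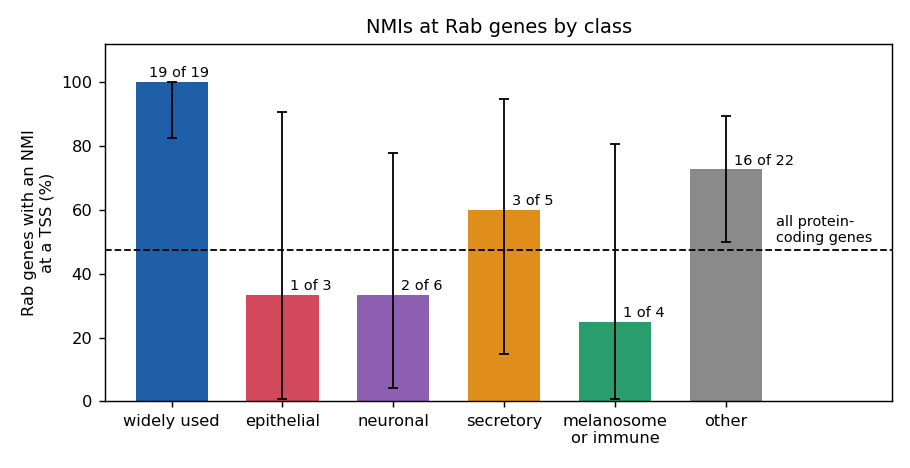
Percent of Rab genes with an NMI at a TSS (bars) in each class, with exact 95% binomial intervals (lines) and the number of genes above each bar. The dashed line is the share of all protein-coding genes, 47.5%. All 19 widely used members have an NMI, and the epithelial, neuronal and melanosome or immune classes lie below the dashed line with intervals that include it.

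The widely used members were ordered by the membranes they serve. For transport between the ER and the Golgi, Rab1a had an NMI of 1292 bp (chromosome 11, 20200842 to 20202133, mm10) and Rab1b one of 814 bp (chromosome 19, 5106525 to 5107338). Rab2a had an NMI of 1571 bp, Rab6a, which acts at the Golgi, one of 1705 bp, and Rab18, known from the ER and lipid droplets, one of 803 bp. Of the 12 genes of this step in all classes, 11 had an NMI, beside 47.5% of all protein-coding genes, and Rab33a was the exception. At early endosomes, the Rab5 genes, which drive endosome fusion, had NMIs of 1515 bp (Rab5a, chromosome 17, 53478677 to 53480191), 1246 bp (Rab5c) and 1118 bp (Rab5b). Rab21, which takes part in integrin uptake, had 1691 bp and Rab22a had 1379 bp. In recycling, Rab11a had 1772 bp (chromosome 9, 64736372 to 64738143), the widest of the widely used class, and Rab11b had 1236 bp. Rab35 had 1719 bp, Rab14 had 1644 bp, and Rab4a, which serves fast recycling, had 717 bp, the narrowest of the class. At late endosomes, Rab7, which directs traffic to lysosomes, had 936 bp (chromosome 6, 88044476 to 88045411), and Rab9, which returns receptors to the Golgi, had 1000 bp. For polarised exocytosis, Rab8a had 1334 bp and Rab10 had 1620 bp. Over all classes, 6 of 6 genes of early endosomes and 4 of 4 of polarised exocytosis had an NMI. Of 9 recycling genes 6 had one, and Rab15, Rab17 and Rab25 had none. Of 7 late endosome genes 3 had one (42.9%), and Rab7b, Rab9b, Rab39 and Rab39b had none. The median width in the widely used class was 1334 bp.

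Members known from restricted cell types were less uniform. Of the epithelial members, Rab25, which directs apical recycling, and Rab17, which serves transcytosis, had no NMI at any TSS. Within 500 bp of the outermost TSS they had 2.10 and 1.90 CpG per 100 bp. Of all protein-coding genes from 2 to 4 and under 2 CpG per 100 bp, 34.9% and 7.82% had an NMI. Rab20, first described in epithelium and found on endosomes and phagosomes, had one of 1977 bp (chromosome 8, 11476856 to 11478832). The share was 1 of 3 (33.3%, 95% interval 0.84 to 90.6%). Among neuronal members, Rab3a, the main Rab of synaptic vesicles, had an NMI of 1085 bp (chromosome 8, 70754344 to 70755428). Rab6b, a Golgi Rab of neurons, had one of 963 bp (chromosome 9, 103111485 to 103112447). Rab3b, Rab3c, Rab15 and Rab39b had none, so that the share was 2 of 6 (33.3%, 95% interval 4.33 to 77.7%). Both neuronal NMIs were narrower than the median of the widely used class.

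Secretory members had an NMI in 3 of 5 (60%, 95% interval 14.7 to 94.7%), and all of these were under 1000 bp. Rab3d, of zymogen granules, had 863 bp (chromosome 9, 21917552 to 21918414). Rab37, known from mast cell granules, had 708 bp (chromosome 11, 115153665 to 115154372), at an inner TSS only. Rab27a, which moves melanosomes and lytic granules, had 429 bp (chromosome 9, 73044684 to 73045112), the narrowest when each Rab gene is taken by its widest NMI at a TSS. Rab26 and Rab27b had none at a TSS, but an NMI inside each gene lay close to one. At Rab27b it was 592 bp wide, held no TSS of any gene and lay 61 bp from an inner TSS. At Rab26 it was 2142 bp wide, lay 448 bp from an inner TSS and held TSSs of Traf7, Rab26os and Snord60. With NMIs within 250 bp of a TSS counted, 4 of 5 secretory members had one, and within 1000 bp, 5 of 5. The call for this class therefore depended on how far from a TSS an NMI was counted. It also depended on placing Rab27a and Rab37 here and not with the members known from pigment or immune cells.

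Of the members known from pigment or immune cells, Rab32, which delivers enzymes to melanosomes, had an NMI of 913 bp (chromosome 10, 10557553 to 10558465). Its close relative Rab38 had none, and the nearest NMI, at Tmem135, lay 907949 bp away. Rab7b, known from myeloid cells, and Rab44, a large Rab of immune cells, had none, which gave 1 of 4 (25%, 95% interval 0.631 to 80.6%).

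The remaining 22 members had an NMI in 16 (72.7%, 95% interval 49.8 to 89.3%), beside 47.5% of all protein-coding genes. Wide NMIs were found at Rab40c, a SOCS-box Rab of ubiquitin ligases (2030 bp, chromosome 17, 25918814 to 25920843, the widest over a TSS of any Rab gene), at the Golgi gene Rab30 (1999 bp), at Rab31 (1907 bp), at the autophagy gene Rab24 (1900 bp) and at the Golgi gene Rab43 (1844 bp). The cilium genes Rab28 (1646 bp), Rab34 (1644 bp) and Rab23 (1029 bp), of which Rab23 restrains Hedgehog signalling, each had one. So did Rab12 (1622 bp), Rab8b (1400 bp), Rab33b (1330 bp), Rab2b (1326 bp), Rab29 (1079 bp), the tight junction gene Rab13 (949 bp), Rab4b (818 bp) and Rab36 (571 bp). Those without were Rab9b, Rab19, Rab33a, Rab39, Rab40b and Rab42. When the widely used class was extended to 32 members by taking in those of this set that act in many cell types, all 32 had an NMI. In the same step Rab9b and Rab33a went to the neuronal class and Rab19 to the epithelial class. Classes were assigned with earlier results of these data known, so the extended count is no independent support for the first.

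Across the 42 genes the median width of the widest NMI was 1328 bp, with quartiles of 952.5 and 1645.5 bp. At all protein-coding genes with an NMI the median was 1210 bp, with quartiles of 921 and 1592 bp. With only NMIs that held no TSS of another gene, the Rab median was 1085 bp over 31 genes, and the matching median over all genes is not given here. Among the 42 Rab genes, 17 had a widest NMI of 1500 bp or more and 12 had one under 1000 bp. Such counts over all genes are not given here. Of the 10 widest, 9 lay at members outside the epithelial, neuronal and secretory classes, Rab20 being the other. Those classes held only 6 of the 42 genes with an NMI, so 9 of 10 is near the share of members outside them. NMIs reached farther into the gene than away from it. Their median extent was 405.5 bp upstream and 786.5 bp downstream of the most upstream TSS they held, beside 389 and 748 bp at all protein-coding genes. The downstream arm was the longer at 36 of 42 Rab genes (85.7%) and at 78.6% of all genes with an NMI. In terms of annotation, the NMI ran from the promoter across exon 1 into intron 1 at 42 of 42 genes and held the start codon of a transcript at 29 of 42 (69%). The shares were 93.7% and 65.1% over the 10206 protein-coding genes in which a transcript annotated as protein-coding started in the widest NMI. Rab24 and Rab20 were the extremes of position. At Rab24, 1263 bp of the NMI lay upstream, where it also held a TSS of Prelid1, and at Rab20, 1854 bp lay downstream and only 122 bp upstream.

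**Figure D2:**
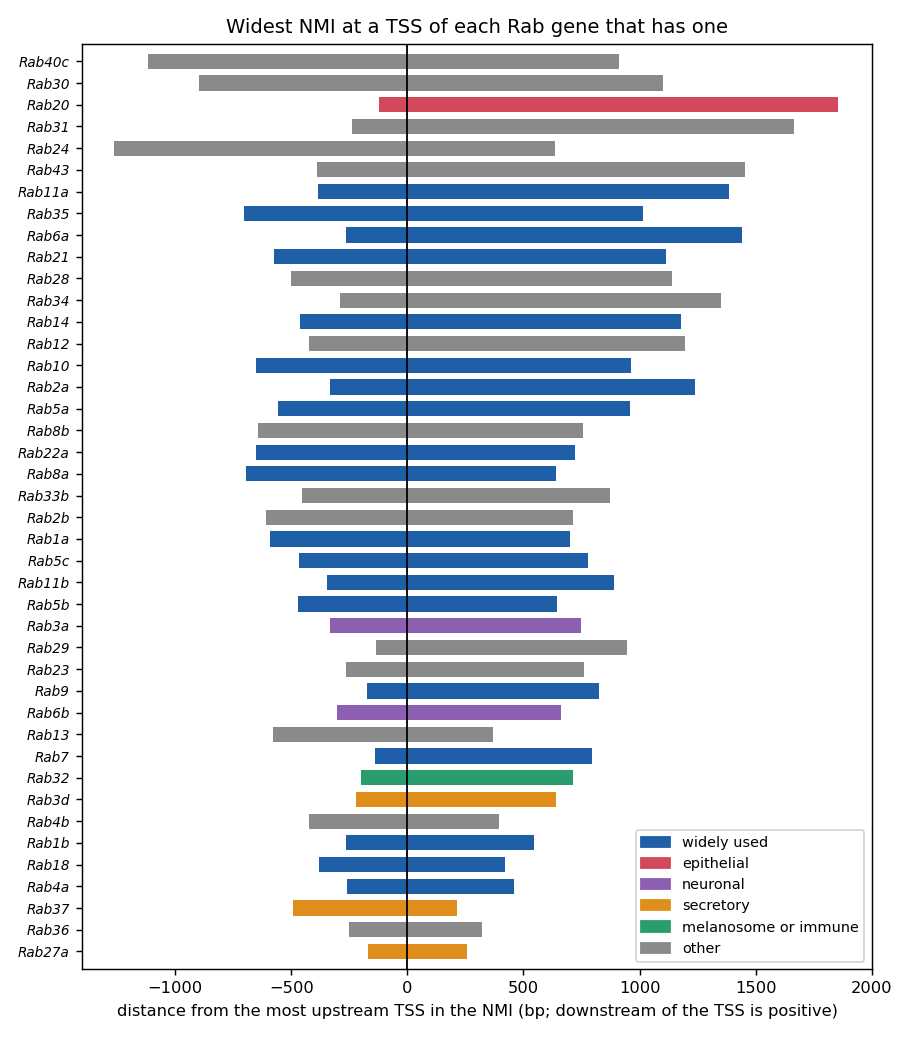
Extent of the widest NMI at a TSS of each of the 42 Rab genes that have one, as the distance (bp) upstream (negative) and downstream (positive) of the most upstream TSS in it, ordered by width and coloured by class. The downstream arm is the longer at 36 of the 42 genes, and the secretory members lie among the narrower NMIs.

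Few Rab genes shared their NMI with another coding gene. TSSs of another protein-coding gene lay in the NMI at 4 of 42 (9.52%), beside 23.6% of all protein-coding genes with an NMI, and the difference was not tested. These were Rab2b with Tox4, Rab6a with the mitochondrial ribosomal gene Mrpl48, Rab13 with the ribosomal gene Rps27, and Rab24 with Prelid1. With non-coding genes and pseudogenes counted, 12 of 42 shared an NMI (28.6%, beside 35.8%). Rab13 was the only Rab gene with a second NMI at a TSS (245 bp, chromosome 3, 90220750 to 90220994). At 3 genes the NMI lay at an inner TSS and not at the outermost one, namely Rab9, Rab18 and Rab37. The outermost TSS of Rab9 lay 48 bp beyond its NMI, that of Rab37 lay 19698 bp and that of Rab18 lay 30860 bp from the nearest NMI.

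Paralogs were compared next. Members of a group are related but do not always serve the same membrane or cell type. Of 17 groups of related Rab genes, every member had an NMI in 7 (Rab1, Rab2, Rab4, Rab5, Rab6, Rab8 with Rab10 and Rab13, and Rab22a with Rab31), members differed in 9, and neither member had one in 1 group (Rab39 and Rab39b). In the Rab11 group, Rab11a and Rab11b had an NMI and Rab25 had none. In the Rab3 group, Rab3a and Rab3d had one and Rab3b and Rab3c had none. Rab7 had one and Rab7b none, Rab9 one and Rab9b none, Rab27a one and Rab27b none, Rab33b one and Rab33a none, Rab40c one and Rab40b none, Rab37 one and Rab26 none, and Rab29 and Rab32 had one where Rab38 had none. With NMIs within 250 bp of a TSS counted, Rab27a and Rab27b both had one, and within 1000 bp so did Rab37 and Rab26. Of the X-linked members, Rab9 had an NMI and Rab9b, Rab33a and Rab39b had none (1 of 4, beside 27.1% of protein-coding genes on X).

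The promoters of 4 pairs that differ are shown to let their CpG content be compared. The sequences are the 250 bases upstream of the RefSeq start site (GRCm38.p6), read 5′ to 3′ on the strand of the gene, with each CpG in capitals. They come from Rab11a, chr9:64737757-64738006, minus strand, and from Rab25, chr3:88548280-88548529, minus strand.
Rab11a: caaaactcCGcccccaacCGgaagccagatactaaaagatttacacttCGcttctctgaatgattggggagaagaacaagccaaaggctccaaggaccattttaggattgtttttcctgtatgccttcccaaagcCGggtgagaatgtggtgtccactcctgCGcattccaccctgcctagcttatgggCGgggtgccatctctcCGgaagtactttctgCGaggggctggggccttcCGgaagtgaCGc
Rab25: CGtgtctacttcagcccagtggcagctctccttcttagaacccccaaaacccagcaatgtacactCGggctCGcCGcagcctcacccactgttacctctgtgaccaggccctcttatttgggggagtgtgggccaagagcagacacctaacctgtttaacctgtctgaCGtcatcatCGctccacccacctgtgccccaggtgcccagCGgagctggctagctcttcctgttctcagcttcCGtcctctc
At these recycling genes the window held 10 CpGs for Rab11a, whose start site lay in an NMI, and 8 for Rab25, whose start site did not. The upstream windows were thus close, and the genes parted downstream of the start, as the plot of CpG density around the TSS shows. Within 500 bp on both sides of the outermost TSS, Rab11a had 6.89 CpG per 100 bp and Rab25 had 2.10.

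The exocytosis genes follow, from Rab3a, chr8:70754453-70754702, plus strand, and from Rab3c, chr13:110280207-110280456, minus strand.
Rab3a: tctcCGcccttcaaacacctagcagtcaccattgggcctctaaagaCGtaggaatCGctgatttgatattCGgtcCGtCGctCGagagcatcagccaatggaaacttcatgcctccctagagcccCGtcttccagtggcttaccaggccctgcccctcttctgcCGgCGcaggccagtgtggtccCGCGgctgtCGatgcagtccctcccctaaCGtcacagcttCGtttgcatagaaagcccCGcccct
Rab3c: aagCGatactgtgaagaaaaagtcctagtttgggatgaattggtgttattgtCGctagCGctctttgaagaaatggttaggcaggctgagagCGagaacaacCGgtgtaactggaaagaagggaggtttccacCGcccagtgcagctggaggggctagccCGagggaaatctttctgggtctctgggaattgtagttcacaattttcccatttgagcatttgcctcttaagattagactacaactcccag
The window held 16 CpGs for Rab3a and 7 for Rab3c. Beside the NMI over its TSS (-335 to 749 bp), Rab3a had a further one upstream (-1602 to -1108 bp relative to the outermost TSS), whereas the nearest NMI to a TSS of Rab3c lay 113228 bp away.

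The Golgi Rabs Rab33b, found in many tissues, and Rab33a, known from brain and lymphocytes, come from Rab33b, chr3:51483716-51483965, plus strand, and from Rab33a, chrX:48519035-48519284, plus strand.
Rab33b: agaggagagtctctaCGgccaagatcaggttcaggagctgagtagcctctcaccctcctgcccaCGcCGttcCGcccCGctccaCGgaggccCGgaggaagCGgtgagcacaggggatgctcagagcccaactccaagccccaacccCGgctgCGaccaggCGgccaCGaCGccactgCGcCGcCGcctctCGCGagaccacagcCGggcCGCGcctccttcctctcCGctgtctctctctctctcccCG
Rab33a: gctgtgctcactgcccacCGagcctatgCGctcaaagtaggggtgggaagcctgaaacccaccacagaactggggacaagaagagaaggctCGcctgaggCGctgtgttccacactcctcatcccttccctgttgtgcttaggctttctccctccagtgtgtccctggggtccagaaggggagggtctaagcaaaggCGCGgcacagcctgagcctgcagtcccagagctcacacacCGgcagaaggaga
They held 23 and 7 CpGs. The SOCS-box genes come from Rab40c, chr17:25919715-25919964, minus strand, and from Rab40b, chr11:121388252-121388501, minus strand.
Rab40c: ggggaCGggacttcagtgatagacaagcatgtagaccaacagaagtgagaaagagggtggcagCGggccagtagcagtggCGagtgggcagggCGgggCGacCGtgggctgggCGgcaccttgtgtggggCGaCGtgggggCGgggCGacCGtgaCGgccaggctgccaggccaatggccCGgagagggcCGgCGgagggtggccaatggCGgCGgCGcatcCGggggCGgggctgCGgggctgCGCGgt
Rab40b: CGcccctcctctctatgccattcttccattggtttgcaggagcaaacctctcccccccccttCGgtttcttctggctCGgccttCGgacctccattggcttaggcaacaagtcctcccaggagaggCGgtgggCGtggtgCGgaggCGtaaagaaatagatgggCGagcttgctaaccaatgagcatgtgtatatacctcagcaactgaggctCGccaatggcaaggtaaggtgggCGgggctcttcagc
They held 24 and 11 CpGs. Around the outermost TSS, Rab40b had 6.29 CpG per 100 bp beside 9.49 at Rab40c, and the nearest NMI lay 32730 bp from it.

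**Figure D3:**
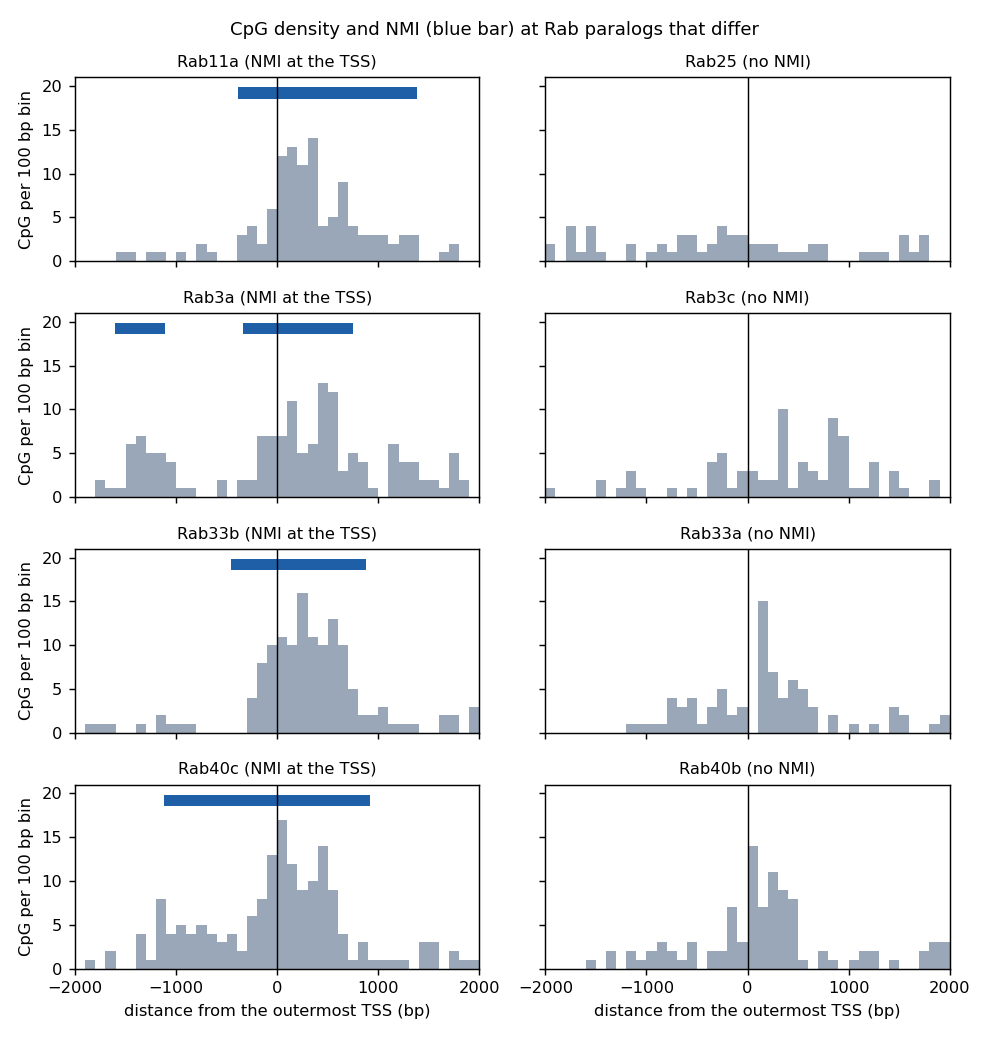
Number of CpGs in bins of 100 bp (grey bars) from 2000 bp upstream to 2000 bp downstream of the outermost TSS (vertical line) at 4 pairs of Rab paralogs, with NMIs as blue bars. The gene on the left of each pair has an NMI over the TSS and the gene on the right has none in the window, although Rab33a and Rab40b have CpG-rich bins just downstream of the TSS.

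CpG density was then compared over all members. Within 500 bp of the outermost TSS the median was 7.19 CpG per 100 bp for Rab genes with an NMI and 3.10 for those without, and the ranges overlapped (0.799 to 13.7, and 1.60 to 6.99). The lowest value with an NMI was that of Rab18, whose outermost TSS is not the one in the NMI. At the TSS with the highest density of each gene, a choice made after the data were seen, the medians were 7.59 and 4.00 and the ranges 4.10 to 13.7 and 1.70 to 8.29. That TSS lay in an NMI at 42 genes, so at each gene that had one. The densest promoter was that of Rab35, at 13.7 CpG per 100 bp, and its NMI was also the densest, at 10.2. NMIs of the other members ran down to 4.30 (Rab30), with a median of 6.84. In the widely used class the median density at the outermost TSS was 7.79, and in the epithelial, neuronal and secretory classes together it was 3.95, so that class and CpG density moved together. Their parts in the difference in NMI share cannot be told apart by these counts.

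**Figure D4:**
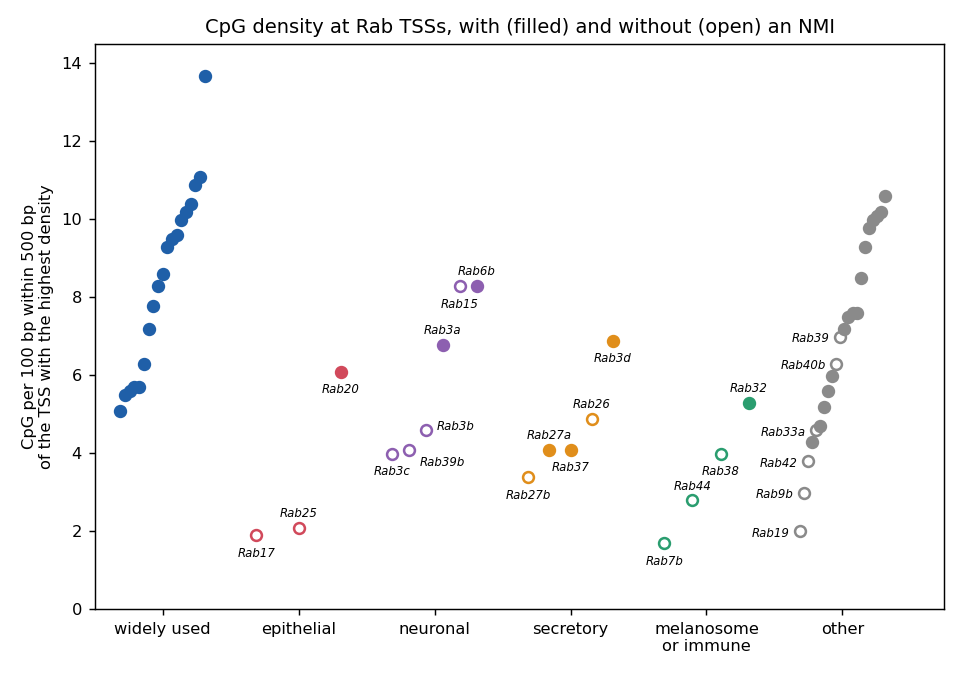
CpG per 100 bp within 500 bp of the TSS with the highest density for each of the 59 Rab genes, by class, as filled points for genes with an NMI and open points for genes without; names are given for the restricted classes and for open points among the others. Rab15, at 8.29, is as dense as Rab6b but has no NMI, and Rab27a and Rab37, at 4.10, have one.

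Grouped by density at the outermost TSS, Rab genes mostly followed all protein-coding genes. With 8 or more CpG per 100 bp, 14 of 14 Rab genes had an NMI (83.9% of all genes of that density), from 6 to 8 it was 12 of 15 (80%, beside 81.6%) and from 4 to 6 it was 13 of 15 (86.7%, beside 72.9%). From 2 to 4 it was 2 of 8 (25%, beside 34.9%) and under 2 it was 1 of 7 (14.3%, beside 7.82%), the 1 gene being Rab18. Each group held fewer than 20 Rab genes, and no difference from all genes was tested.

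**Figure D5:**
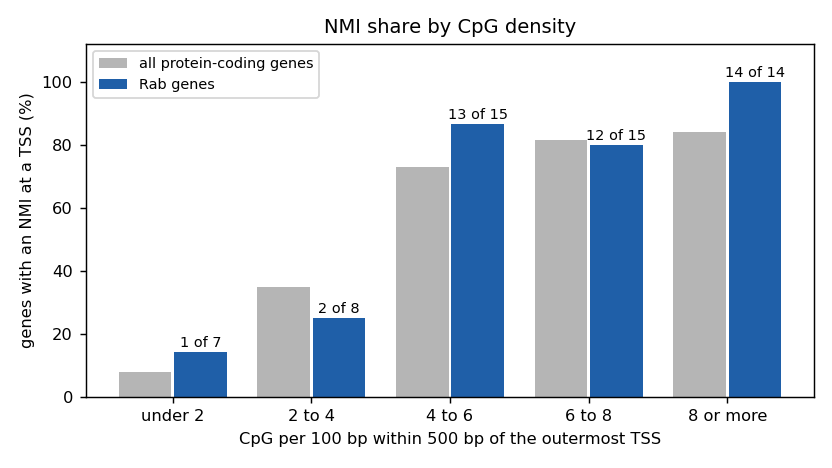
Percent of genes with an NMI at a TSS, by CpG per 100 bp within 500 bp of the outermost TSS, for all protein-coding genes (grey) and for Rab genes (blue, with the number of genes above each bar). In both, the share is at most 34.9% under 4 CpG per 100 bp and at least 72.9% from 4 upward.

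CpG islands predicted from the sequence (joined 500 bp windows in which GC made up 55% or more of the bases and CpG reached 0.65 of the number expected) lay at a TSS of 51 Rab genes. Of the 51 islands, 41 overlapped an NMI (80.4%, 95% interval 66.9 to 90.2%), beside 74% of the islands at TSSs of all protein-coding genes. Each of the 42 Rab genes with an NMI had a predicted island, although at Rab37 the island and the NMI lay apart. Of the 10425 protein-coding genes with an NMI, 558 had no predicted island. Among genes with a predicted island, 82.4% of Rab genes and 77.6% of all protein-coding genes had an NMI. A predicted island without an NMI at any TSS was found at 9 Rab genes. The widest was at Rab39 (1458 bp), followed by Rab40b (1100 bp) and Rab15 (1044 bp), a gene of endosome transport in neural cells. Shorter ones lay at Rab39b (783 bp), which is mutated in X-linked intellectual disability, Rab33a (766 bp), Rab26 (757 bp), Rab42 (642 bp), Rab3b (531 bp) and Rab3c (506 bp). The other 8 genes without an NMI (Rab7b, Rab9b, Rab17, Rab19, Rab25, Rab27b, Rab38 and Rab44) had no predicted island by these criteria. By looser ones (200 bp, 50% and 0.6), Rab9b, Rab19 and Rab38 had one too, and 43 of 62 islands at Rab genes overlapped an NMI (69.4%, beside 58.9% for all protein-coding genes). Absence from the NMI list is not a measurement of methylation.

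The nearest NMI to a TSS lay within 1000 bp at 2 of the 17 genes without one (Rab26 and Rab27b), within 10 kb at 5 more and farther away at 10, with a median distance of 18313 bp. At Rab25 it lay 3991 bp away and held TSSs of Lamtor2 and Ubqln4. At Rab19 it lay 3235 bp away, at Slc37a3, at Rab42 it lay 5018 bp away, at Snhg12, at Rab33a it lay 5090 bp away, at Aifm1, and at Rab17 it was 248 bp wide, lay 5432 bp away and held a TSS of Gm28199.

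Promoter motifs were counted in the 60 promoters (250 bases upstream and 50 downstream) that RefSeq gives for 48 of the Rab genes, on both strands, beside 32851 promoters of all genes. The GC box GGGCGG, which holds a CpG, was found in 33 of 42 promoters whose start lay in an NMI (78.6%) and in 8 of 18 others (44.4%), beside 35.7% of all promoters. The CCAAT box was found in 20 of 42 (47.6%) and 6 of 18 (33.3%), beside 37.4%. The TATA box TATAAA was found in 1 of 42 (2.38%, at Rab7) and in 3 of 18 (16.7%, at Rab3b, Rab39b and Rab42), beside 13.6%. The ETS motif CCGGAAG was found in 4 of 42 (Rab8a, Rab11a, Rab14 and Rab24) and 1 of 18 (Rab17), beside 8.86%, and the E-box CACGTG in 5 of 42 and 1 of 18, beside 7.15%. The cAMP response element TGACGTCA was found in the promoters of Rab5a and Rab25, where it can be read in the sequence above, beside 1.79% of all promoters, and the NRF1 motif in 0, beside 0.971%. A match describes these letters in the window and is not evidence of binding.

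Genes that act on Rab proteins were counted from lists of regulators and effectors. Of all these genes together, 80.3% had an NMI (95% interval 72.3 to 86.8%), beside 47.5% of all protein-coding genes. Their median width was 1187.5 bp, beside 1210 bp for all protein-coding genes with one. Genes for prenylation and recycling of Rab proteins had an NMI in 7 of 8, among them Rabac1 (1767 bp), the escort protein gene Chml (1577 bp), Rabggtb of the geranylgeranyl transferase (1473 bp) and Gdi2 (1363 bp). The exception was Chm, the X-linked escort protein gene of choroideremia. GEF genes had one in 28 of 32, led by Ric1 (2136 bp), Mon1b (2071 bp), Dennd4c (1827 bp) and Dennd5b (1763 bp), and Dennd1c, Dennd2a, Dennd2d and Rin3 had none. GAP genes had one in 35 of 41, led by Sgsm2 (2567 bp), Tbc1d17 (2189 bp), Usp6nl (1634 bp) and Tbc1d10b (1576 bp), and Grtp1, Sgsm1, Tbc1d10c and Tbc1d21 were among the 6 without. General effectors, such as endosome tethers and motor adaptors, had one in 31 of 32 (96.9%, 95% interval 83.8 to 99.9%), led by Micall1 (2184 bp), Uso1 (1880 bp), Rilpl1 (1574 bp) and Rab11fip3 (1521 bp), and Inpp5b had none.

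Effectors of regulated exocytosis had an NMI in 1 of 14 (7.14%, 95% interval 0.181 to 33.9%), beside 47.5% of all protein-coding genes, and no difference was tested. The count depends on how effectors were assigned, since Rab11fip4 was placed here and Rab11fip1, Rab11fip2, Rab11fip3 and Rab11fip5, which each had an NMI, among the general effectors. The 1 gene was Sytl2 (951 bp), a partner of Rab27 proteins. Those without included Exph5, Mlph, Myrip and Rab11fip4. The median density at the genes without was 2.90 CpG per 100 bp, beside 6.49 over all general effectors, but not all were poor in CpG. Rab11fip4 had 9.89, and the active zone genes Rims2 and Rims1, named after their values were seen, had 11.7 and 8.49. The Rab genes of secretory granules, by comparison, had an NMI in 4 of 8 (50%, 95% interval 15.7 to 84.3%).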

How the data were processed

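Genomic DNA of C127 cells was captured by Bio-CAP in 1 library. Per the study's methods, the authors used Bowtie2 for alignment to mm10, kept uniquely placed reads, dropped duplicates by means of SAMtools, and called peaks using MACS (MACS2 in the submitters' processing notes) at a q-value of 0.01. Whether the input was the control for this list is not stated, and tool versions were not given in the sources used here. The deposited table held chromosome, start and end, and starts, counted from 0, are given counted from 1. Unique alignment can lose near-identical copies, and a threshold leaves weak islands out. The ATAC and 4sU-labelled RNA libraries and the inputs were not analysed here.

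TSSs came from GENCODE M21 (GRCm38, the coordinates of mm10) for chromosomes 1 to 19, X and Y. A gene had an NMI when a TSS lay in one by at least 1 bp. CpG islands were unions of sequence windows at the stated criteria. Promoters came from RefSeq (GRCm38.p6), and the 60 of Rab genes equalled the genome sequence. Those of Rab1a to Rab44 not in that table are Rab2a, Rab4a, Rab7b, Rab18, Rab26, Rab27b, Rab30, Rab36, Rab37, Rab38 and Rab44. Scripts ran in Python 3.11.15 with numpy 2.4.6, scipy 1.17.1 and matplotlib 3.10.9, and overlap rules were tested on simulated data. With 1 library, no test across genes was made.

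The members, classes and gene lists were chosen with earlier results of these data known. All Rab genes could be named, and from each other list up to 4 genes with the widest NMI and up to 4 without, in alphabetical order. Rab10 and Rab13 were placed with Rab8, Rab29 with Rab32, and Rab26 with Rab37 as relatives. Classes follow general knowledge of where each protein is used, not a measurement in these cells.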

Additional observations from a re-analysis of the deposited data

How the results depend on the processing

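Of 48 alternatives, 46 left a share inside the exact interval of its reported value, or a median within 1.5 times, but for the 3 epithelial and 6 neuronal genes those intervals are so broad that few alternatives could leave them. With only NMIs that held no TSS of another gene, 52.5% of Rab genes had one in place of 71.2%, and 31.3% of all protein-coding genes in place of 47.5%, because shared NMIs were dropped. With NMIs within 1000 bp of a TSS counted, 100% of secretory genes had one in place of 60%, through Rab26 and Rab27b. Restricted to the outermost TSS, the shares were 66.1% for all Rab genes, 89.5% for the widely used class (without Rab9 and Rab18) and 40% for secretory genes, and 42.5% for all protein-coding genes. The ratio of median CpG density between genes with and without an NMI was 2.32, and 1.74 with windows of 1000 bp on each side. No paired analysis was possible because the list came from 1 library, and no replicate could be left out.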

Other observations

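Another family of small GTPases was counted for comparison. Arf and Arl genes, which act in vesicle coat assembly and cilia, had an NMI in 23 of 28 (82.1%, 95% interval 63.1 to 93.9%). The share of all protein-coding genes was 47.5%. The widest lay at Arl4c (2574 bp), Arf6 (1861 bp), Arf4 (1847 bp) and Arl1 (1836 bp), and Arl5c, Arl9, Arl11, Arl13a and Arl14 had none. Rab genes had a share of 71.2% (95% interval 57.9 to 82.2%), and the difference was not tested.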
